A study of Drosophila melanogaster with 16 samples.

Results

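The larval serum proteins and fat body proteins are the main products that the fat body of the fly larva makes before metamorphosis. The members described here are the 6 genes whose symbols are Lsp1alpha, Lsp1beta, Lsp1gamma, Lsp2, Fbp1 and Fbp2. They were chosen by name, under a rule that uses no measured value, but with earlier results of these data known. All 6 were found in the table of the larval body, among 12509 genes, and in that of the BRGC, a dissected complex of brain and ring gland, among 9731 genes. The study compared wandering larvae of the last instar that were homozygous for dfr14 with w1118 control larvae. dfr14 is a CRISPR/Cas9 deletion of a few bases just downstream of the first stop codon of ventral veins lacking (vvl, also called drifter or dfr), a POU transcription factor gene, and it blocks translation of the C-terminal extension that stop codon readthrough adds. There were 4 dfr14 body, 4 control body, 4 dfr14 BRGC and 4 control BRGC libraries, and BRGC and body came from different larvae. The body samples were larvae from which BRGCs, mouth hooks and salivary glands had been removed, so fat body, gut, muscle, epidermis and blood cells are all in them. The dfr14 line was sequenced after outcrossing to a balancer stock and before it was repeatedly outcrossed to w1118, so other differences between the 2 lines cannot be told apart from the allele.

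Hexamerins are large blood proteins of insects. In Drosophila, LSP1 is assembled from alpha, beta and gamma subunits and LSP2 from a single kind of subunit. The fat body secretes them during the last larval instar, and at the end of that instar ecdysone turns the fat body from secretion to uptake, so that the proteins return to it and are stored in granules as a supply of amino acids for building the adult. Fbp1 encodes the fat body receptor for hexamerins and is a classical ecdysone-induced gene of the late larva. Fbp2 encodes a fat body protein of the alcohol dehydrogenase family that is also expressed late in larval life.

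The 6 genes lie apart from each other in the genome (build BDGP6). Lsp1alpha (FBgn0002562) is at X:12490291-12492982, Lsp1beta (FBgn0002563) at 2L:898500-901316 and Lsp1gamma (FBgn0002564) at 3L:66430-68995, all on the plus strand. Lsp2 (FBgn0002565) is at 3L:12129393-12131869 on the plus strand, where an antisense noncoding gene, CR11538, overlaps it. Fbp1 (FBgn0000639) is at 3L:14094589-14098053 on the minus strand, and Fbp2 (FBgn0000640) is at 2L:9426784-9427917 on the plus strand, where CG42847 overlaps it on the same strand. The values below are whole-gene counts. The 3 Lsp1 genes are paralogs, and how reads that fit more than 1 of them were treated is not given in the sources used here.

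Total counts per library, in units of 1e6 reads, were 17.1 to 27.4 in dfr14 body, 17.8 to 23.0 in control body, 19.4 to 27.7 in dfr14 BRGC and 20.5 to 30.1 in control BRGC. The transcript of the mutated gene itself, vvl, was higher in dfr14 BRGC, with 104 ± 11.1 CPM against 64.9 ± 2.36 CPM in control BRGC (mean ± SD, n = 4 each; limma adjusted p = 0.00077) and had 76.7 ± 6.94 CPM in dfr14 body against 51.9 ± 5.19 CPM in control body (adjusted p = 0.066). CPM is counts per 1e6 reads after TMM scaling, which corrects for libraries dominated by a few transcripts. A small deletion need not lower the count of its gene, so vvl does not check the labels. One library was unlike the rest, control body library 4: no read was found for 1685 genes, against 32 to 189 such genes elsewhere in the body, and 20 testis and Y-linked transcripts averaged -3.21 on the log2 scale, against 1 to 3.94 elsewhere. Library numbers are only names and have no order.

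By mean CPM over the body libraries the 6 genes ranked from 2 (Fbp1) to 19 (Lsp1alpha), but not all were abundant in each library. Lsp1alpha had 21400 and 3630 CPM in dfr14 libraries 1 and 2, and 17.4 to 988 CPM in the other body libraries. Fbp2, at rank 12, had 152 and 276 CPM in dfr14 libraries 2 and 3. Together the 6 genes took 11.4, 8.72, 7.71 and 7.7% of the reads of the 4 dfr14 body libraries and 7.87, 6.25, 8.58 and 8.94% of the reads of the 4 control body libraries. The total therefore overlapped between the genotypes. The share of Fbp1 in it overlapped as well, while that of Fbp2 did not. In the 4 dfr14 body libraries Fbp1 gave 28.3, 40.4, 69.1 and 64.7% of the reads of the 6 genes, against 38.5, 32.1, 19.2 and 30.8% in control body. Fbp2 gave 2.85, 0.152, 0.359 and 3.47% in dfr14 body and 8.27, 8.99, 8.9 and 8.9% in control body.

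Per kilobase of exon, the only scale on which the genes are set against each other here, the order of the mean levels in dfr14 body was Fbp1 with 13200 ± 1780 CPM per kb, Lsp2 with 8600 ± 2330, Lsp1beta with 4540 ± 3870, Lsp1gamma with 4470 ± 4160, Lsp1alpha with 2430 ± 3860 and Fbp2 with 1650 ± 1760 (mean ± SD, n = 4). The last 4 overlap within their spread, and Lsp2 also overlaps Lsp1beta, Lsp1gamma and, narrowly, Lsp1alpha. Control body had Lsp1gamma with 9140 ± 3580 CPM per kb, Lsp2 with 7370 ± 1200, Fbp1 with 6260 ± 1730, Fbp2 with 6030 ± 1540, Lsp1beta with 1580 ± 1860 and Lsp1alpha with 105 ± 180 (mean ± SD, n = 4). There Lsp1gamma, Lsp2, Fbp1 and Fbp2 overlapped within their spread, and the means of Lsp1beta and Lsp1alpha lay below them. In bulk tissue, fewer cells of a type and less RNA per cell cannot be told apart, so a level here can move with the share of fat body in the sample as well as with its transcription.

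**Figure D1:**
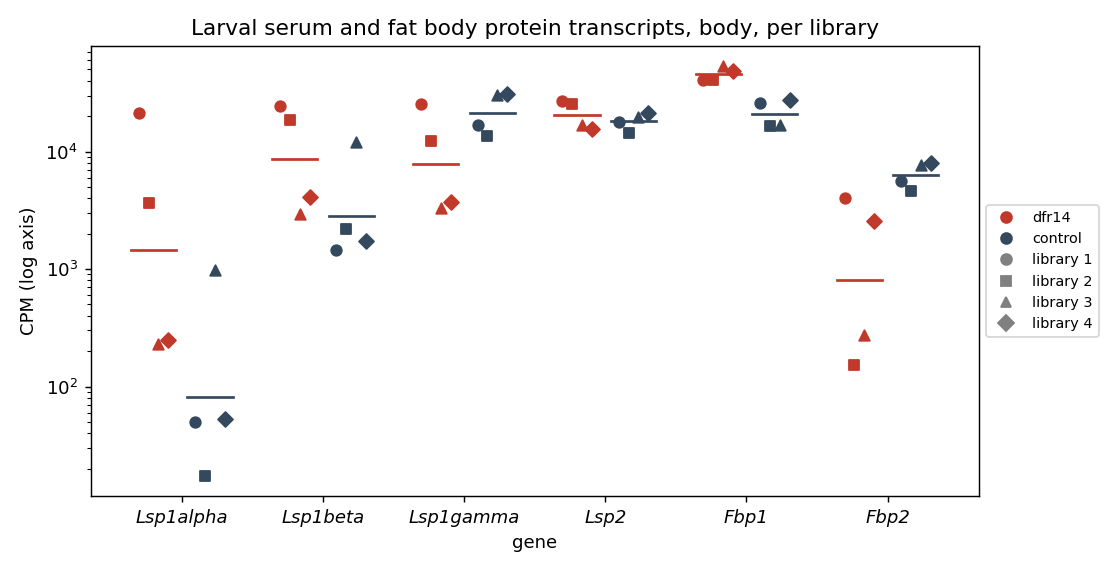
CPM on a log axis of each of the 6 genes in the 8 body libraries. Red is dfr14, left, and dark blue is control, right; each symbol is 1 library and the bar is the geometric mean of the 4. Fbp1 is higher in all 4 dfr14 libraries and Fbp2 is lower in all 4; the other 4 genes overlap, with Lsp1alpha spread from 17.4 to 21400 CPM over the 8 libraries.

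The secreted serum proteins come first. Lsp1alpha, the alpha subunit of LSP1, had 21400, 3630, 228 and 251 CPM in dfr14 body and 50.2, 17.4, 988 and 53.1 CPM in control body. Dfr14 libraries 1 and 2 were far above the rest, and control library 3 lay above dfr14 libraries 3 and 4, so the genotypes overlapped. The log2 fold change, dfr14 over control, was 4.14 ± 1.80 (SE; limma adjusted p = 0.38), the widest error of the 6 genes in the body.

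Lsp1beta, the beta subunit, had 24400, 18400, 2960 and 4070 CPM in dfr14 body and 1440, 2180, 12000 and 1740 CPM in control body. The same dfr14 libraries 1 and 2 were high, and among the controls it was again library 3 that stood out. Its log2 fold change was 1.59 ± 0.95 (limma adjusted p = 0.57).

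Lsp1gamma, the gamma subunit, had 25400, 12200, 3300 and 3700 CPM in dfr14 body and 16900, 13500, 30100 and 30900 CPM in control body. Its difference ran the other way from those of the alpha and beta genes. Dfr14 library 1 lay within the control range and the other dfr14 libraries below it, and the log2 fold change was -1.45 ± 0.79 (limma adjusted p = 0.50).

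Lsp2, the second hexamerin, was the steadiest of the storage protein genes. It had 26900, 25500, 17000 and 15700 CPM in dfr14 body and 17800, 14400, 19600 and 21300 CPM in control body. The genotypes overlapped, with a log2 fold change of 0.20 ± 0.54 (95% interval -1.06 to 1.45; limma adjusted p = 0.97), which was -0.04 when libraries were scaled by their size alone. With voom weights the SE of Lsp2 was 0.243 (limma adjusted p = 0.89). The antisense gene CR11538 had 1.51 ± 0.623 CPM in dfr14 body and 1.01 ± 0.303 CPM in control body, near nothing beside Lsp2.

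Fbp1, the hexamerin receptor, had 40400, 40600, 53100 and 48400 CPM in dfr14 body and 26100, 16400, 16700 and 27600 CPM in control body. Every dfr14 library was above every control library. The log2 fold change was 1.104 ± 0.704, which did not pass (95% interval -0.54 to 2.74; limma adjusted p = 0.61). The SE was smaller in some other limma fits, but Fbp1 passed in none of them. Planned fits gave 0.241 with voom weights and 0.358 with the testis and Y-linked transcripts as a covariate, each with an adjusted p of 0.11. Without limma's intensity trend the SE was 0.228 and the adjusted p was 0.08, in a fit chosen after seeing the data.

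Fbp2 had 4060, 152, 276 and 2590 CPM in dfr14 body and 5610, 4590, 7750 and 7970 CPM in control body. Every dfr14 library was below every control library, and dfr14 libraries 2 and 3 had the lowest values. The log2 fold change was -2.95 ± 1.07 (unadjusted p = 0.026, limma adjusted p = 0.28). CG42847, which overlaps Fbp2, had 21.7 ± 13.6 CPM in dfr14 body and 50.4 ± 9.68 CPM in control body (adjusted p = 0.28).

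In all, 0 of the 6 genes passed an adjusted p of 0.05 in the body by limma (1 had an unadjusted p under 0.05), where 1.41% of all 12509 genes were called, 136 higher and 41 lower in dfr14 and 1684 with an unadjusted p under 0.05. The genotypes did not overlap for 2 of the 6, Fbp1 and Fbp2, where 9.15% of all genes did not overlap. The median log2 fold change was 0.65 over the 6 genes and 0.12 over all genes. Scaling by library size alone moved the median of all genes from 0.119 to -0.119. Relative to the median gene the changes were 4.02 for Lsp1alpha, 1.47 for Lsp1beta, -1.57 for Lsp1gamma, 0.08 for Lsp2, 0.99 for Fbp1 and -3.07 for Fbp2.

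Libraries of 1 genotype differed widely in 4 of the 6 genes. Within genotypes the SD of the log2 values was 2.86 for Lsp1alpha, 1.68 for Fbp2, 1.47 for Lsp1beta and 1.09 for Lsp1gamma, against a median of 0.42 over all genes. Lsp2 and Fbp1, with 0.33 and 0.32, varied less than the median gene. In dfr14 body the SD of Fbp2 was 2.34 and in control body it was 0.38, so its spread lay in the mutants.

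Ratios between members within a library do not depend on how libraries were scaled. Of the 15 pairs of the 6 genes, 7 had ratios that did not overlap between dfr14 body and control body, where 9.48% of all pairs of body genes with at least 1 CPM did so. The 15 ratios are made of 6 genes and are not independent, and they were examined after the levels had been seen. The ratio of Lsp1beta to Lsp1gamma was 0.96, 1.51, 0.897 and 1.1 in dfr14 body and 0.0851, 0.161, 0.399 and 0.0564 in control body. So the 2 subunit genes had about equal counts in each dfr14 library, while Lsp1gamma was ahead in each control library, whether the library was high or low in Lsp1beta.

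Lsp1alpha over Lsp1gamma gave 0.841, 0.298, 0.0692 and 0.0679 in dfr14 body and 0.00297, 0.00129, 0.0328 and 0.00172 in control body. Here too the genotypes did not overlap. Fbp1 over Fbp2 gave 9.94, 267, 192 and 18.7 in dfr14 body and 4.65, 3.57, 2.16 and 3.46 in control body. Lsp2 over Fbp2 gave 6.63, 167, 61.4 and 6.07 in dfr14 body, against 3.17, 3.13, 2.52 and 2.68 in control body, where it hardly varied. The other pairs that did not overlap were Lsp1beta over Fbp2, higher in dfr14, and Lsp1gamma over Fbp1 and Lsp2 over Fbp1, both lower in dfr14. The Lsp2 over Fbp1 pair was close, with 0.667 in dfr14 library 1 beside 0.681 in control library 1.

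**Figure D2:**
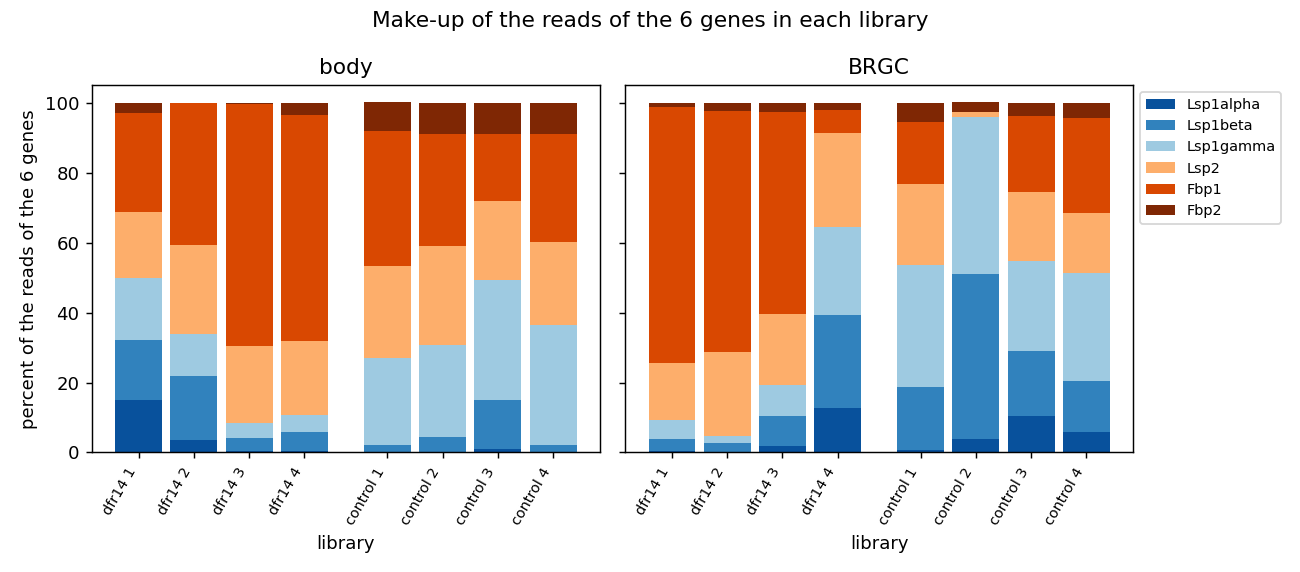
Percent of the reads of the 6 genes that each gene took, as stacked bars, in the 8 body libraries (left panel) and the 8 BRGC libraries (right panel), dfr14 left of control. In dfr14 body libraries 3 and 4 Fbp1 makes up 69.1 and 64.7% of the bar, and in control BRGC library 2 the 3 Lsp1 genes make up 95.8%.

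The libraries with much Lsp1alpha and Lsp1beta also differed from the others in some genes of the ecdysone cascade. The nuclear receptor gene Hr3, an early-late ecdysone response gene, had 1.9, 4.38, 18.4 and 23.7 CPM in dfr14 body and 35.2, 25.4, 2.78 and 44.0 CPM in control body. Hr4, a nuclear receptor gene of the same response, had 4.54, 15.7, 116 and 90.0 CPM in dfr14 body, and 138, 87.6, 7.33 and 90.2 CPM in control body. Eip78C, a further ecdysone-induced receptor gene, had 12.6, 24.9, 138 and 241 CPM in dfr14 body and 336, 248, 23.3 and 306 CPM in control body. All 3 genes were lowest in the same 3 libraries, dfr14 libraries 1 and 2 and control library 3, the ones with the most Lsp1alpha and Lsp1beta. These 3 genes were picked for this pattern after their values were seen, and not all ecdysone response regulators shared it. The regulator ftz-f1 ran the other way, highest in these 3 libraries, with 13.5, 14.8, 5.57 and 7.28 CPM in dfr14 body and 2.43, 3.93, 8.83 and 6.55 CPM in control body. EcR, the ecdysone receptor gene, had 179, 226, 262 and 194 CPM in dfr14 body and 181, 154, 188 and 157 CPM in control body. Summed over the 12 measured ecdysone response regulators, the level was 620, 814, 1440 and 1270 CPM in dfr14 body and 1460, 1060, 630 and 1220 CPM in control body. Of the 12, 0 passed the test in the body and 8 had a positive sign. Their part in the storage protein levels was not tested.

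Muscle and gut markers were highest in the same 3 body libraries. The 6 muscle genes summed to 14800, 7620, 1630 and 1190 CPM in dfr14 body and 2010, 3040, 8680 and 4430 CPM in control body, and the 6 gut genes to 9650, 5830, 2130 and 3360 CPM in dfr14 body and 2880, 3800, 8270 and 3850 CPM in control body. In each list 0 of 6 passed in the body, and the part of these tissues in the storage protein levels was not tested.

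The salivary glands had been taken out of the body samples. Summed over a list of 8 salivary gland genes, mostly of glue proteins, the level was 1.29, 2.0, 1.24 and 0.74 CPM in dfr14 body and 4.27, 11.1, 13800 and 1400 CPM in control body. So control library 3, the control with the most Lsp1alpha and Lsp1beta, also had the most salivary gland transcripts. Control library 4, low in Lsp1alpha, came second. Control libraries 1 and 2 and all 4 dfr14 libraries were far below both, with dfr14 the lowest. Of the 8 genes 0 passed in the body, all 8 had a negative sign, and their part in the member levels was not tested.

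**Figure D3:**
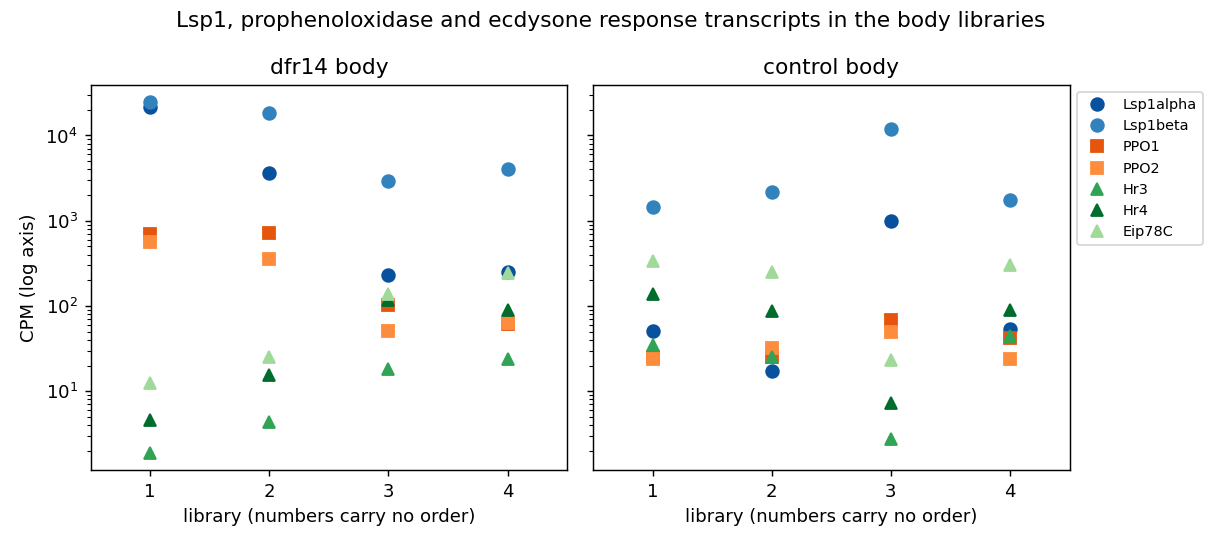
CPM on a log axis of Lsp1alpha and Lsp1beta (circles), the prophenoloxidase genes PPO1 and PPO2 (squares) and the ecdysone response genes Hr3, Hr4 and Eip78C (triangles) in the 4 dfr14 body libraries (left panel) and the 4 control body libraries (right panel). Where the circles are high, in dfr14 libraries 1 and 2 and control library 3, the triangles are low.

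Other genes of the fat body gave no call in the body either. Of 18 measured, 0 passed, 13 had a positive sign, and the median log2 fold change was 0.29 beside 0.12 over all genes. apolpp, which encodes the main lipid carrier of the blood, had 6180 ± 1850 CPM in dfr14 body and 1870 ± 1110 CPM in control body (log2 fold change 1.84 ± 0.43, limma adjusted p = 0.11). Lsd-1, a lipid droplet coat gene, had 710 ± 108 CPM in dfr14 body and 591 ± 57.6 CPM in control body (0.26 ± 0.14, adjusted p = 0.53). The desaturase gene Desat1 had 715 ± 391 CPM in dfr14 body and 770 ± 468 CPM in control body (-0.09 ± 0.50, adjusted p = 0.98). Summed over the list, the level was 12200, 10700, 7010 and 7100 CPM in dfr14 body and 3240, 3660, 7960 and 4790 CPM in control body. It too was highest in dfr14 libraries 1 and 2 and control library 3, the libraries with the most Lsp1alpha and Lsp1beta. The part of fat body content in the member levels was not tested. One defining gene was near 0 throughout: Adh, alcohol dehydrogenase, had 2.28 ± 3.10 CPM in dfr14 body and 0.261 ± 0.249 CPM in control body.

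The prophenoloxidases are relatives of the hexamerins in sequence and are made by blood cells rather than fat body. PPO1 had 697, 717, 102 and 61.6 CPM in dfr14 body and 25.2, 24.9, 68.8 and 41.9 CPM in control body (log2 fold change 2.69 ± 0.88, limma adjusted p = 0.24). PPO2 had 570, 356, 50.3 and 63.9 CPM in dfr14 body and 23.8, 32.5, 49.6 and 24.0 CPM in control body (2.37 ± 0.82, adjusted p = 0.26). Both were highest in dfr14 libraries 1 and 2, as were Lsp1alpha and Lsp1beta. PPO3 stayed low, with 3.12 ± 2.0 CPM in dfr14 body and 0.477 ± 0.170 CPM in control body (2.31 ± 0.56, adjusted p = 0.12), and 0 of the 3 passed. The 5 blood cell markers summed to 482 to 1770 CPM in dfr14 body and 203 to 466 CPM in control body, without overlap, and 0 of 5 passed.

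Genes known to regulate the storage protein genes were also examined. Of 6 measured in the body, 0 passed and all had a positive sign, with a median log2 fold change of 0.26. srp, a GATA factor gene of the fat body, had 116 ± 49.5 CPM in dfr14 body and 54.4 ± 6.43 CPM in control body (1.01 ± 0.28, limma adjusted p = 0.17), and EcR, the ecdysone receptor gene, had 215 ± 36.7 CPM in dfr14 body and 170 ± 17.2 CPM in control body (0.33 ± 0.14, adjusted p = 0.37). Of the 10 genes measured for storage granule uptake and lysosomes, 0 passed in the body and 9 had a positive sign. cathD, a cathepsin gene, had 1400 ± 64.3 CPM in dfr14 body and 1240 ± 209 CPM in control body (0.19 ± 0.16, adjusted p = 0.74).

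The genes whose body profile was most like that of Lsp1beta, Lsp1gamma and Lsp2 were sought over the 8 body libraries. Over 11535 genes, the highest Pearson correlations with the centred mean of the 3 genes were those of Cyp311a1 (0.997), mRpS9 (0.994), CG31463 (0.994), Cpr11A (0.992) and CG17141 (0.991). The points share libraries and genotypes, and with 8 libraries so many genes offer high values. Cpr11A, a cuticle protein gene, ranged from 0.291 to 150 CPM, and mRpS9, a mitochondrial ribosomal protein gene, only from 23.7 to 37.3 CPM.

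In the BRGC, tissue that is not fat body, the same transcripts were far less abundant and more uneven. They took 0.0335, 0.0216, 0.017 and 0.00865% of the reads of the 4 dfr14 BRGC libraries and 0.0132, 0.739, 0.00603 and 0.1% of the reads of the 4 control BRGC libraries. Control library 2 stood far above the other 7 and control library 4 came next. The 6 genes had 173352 reads in control library 2 and 24186 in control library 4. How much surrounding tissue each dissection kept is not given in the sources used here.

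Lsp1alpha had 1.76, 0.519, 3.52 and 11.6 CPM in dfr14 BRGC and 0.729, 280, 6.12 and 56.9 CPM in control BRGC. Its log2 fold change was -2.69 ± 1.62 (limma adjusted p = 0.29). Control libraries 2 and 4 made the difference in this gene: with both left out, in a fit chosen after seeing the data, it was 0.22 ± 1.21 (adjusted p = 0.94).

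Lsp1beta had 11.4, 5.19, 15.1 and 24.1 CPM in dfr14 BRGC and 23.0, 3440, 10.8 and 142 CPM in control BRGC (log2 fold change -3.11 ± 1.51, limma adjusted p = 0.19). Lsp1gamma had 17.9, 4.46, 15.9 and 22.9 CPM in dfr14 BRGC and 44.0, 3280, 14.9 and 303 CPM in control BRGC (-3.60 ± 1.41, unadjusted p = 0.03, adjusted p = 0.12). For both, the genotypes overlapped: 3 of the 4 dfr14 libraries were above control library 3, and all 4 were below control libraries 2 and 4. Without control libraries 2 and 4 the log2 fold changes were -0.38 and -0.97, with adjusted p of 0.74 and 0.44.

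Lsp2 was again the steadiest of the serum protein genes. It had 54.8, 52.3, 36.7 and 24.4 CPM in dfr14 BRGC and 29.3, 93.8, 11.4 and 170 CPM in control BRGC (log2 fold change -0.27 ± 0.72, limma adjusted p = 0.83). The dfr14 values lay inside the control range. The sign rested on control libraries 2 and 4, without which it was 1.12 ± 0.44 (adjusted p = 0.18).

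Fbp1 did not follow the Lsp1 genes. It had 246, 150, 104 and 6.09 CPM in dfr14 BRGC and 22.1, 5.77, 12.6 and 265 CPM in control BRGC (1.44 ± 1.33, limma adjusted p = 0.49). Control library 2, the highest of all in Lsp1beta and Lsp1gamma, was the lowest of all in Fbp1. Without control libraries 2 and 4 the log2 fold change of Fbp1 was 2.05 ± 1.33 (adjusted p = 0.40), and with single libraries left out it ran from 0.73 without control library 2 to 2.61 without dfr14 library 4. Fbp2 had 4.22, 4.93, 4.89 and 1.83 CPM in dfr14 BRGC and 7.07, 204, 2.21 and 44.0 CPM in control BRGC (-2.37 ± 1.16, adjusted p = 0.20), so it did follow the Lsp1 genes into control libraries 2 and 4. Without those 2 libraries its log2 fold change was -0.10 (adjusted p = 0.94).

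**Figure D4:**
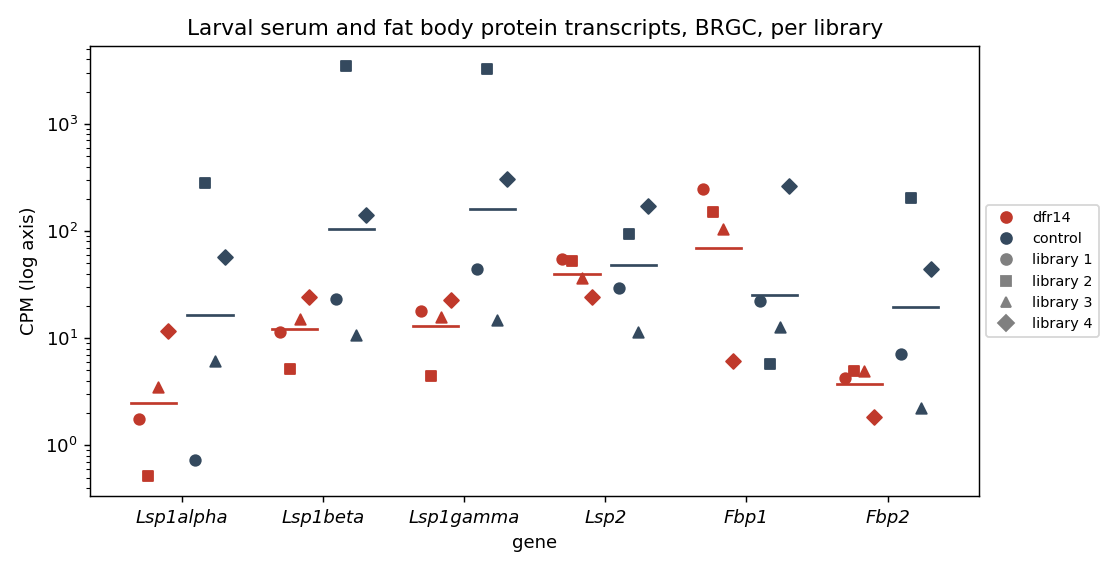
CPM on a log axis of each of the 6 genes in the 8 BRGC libraries. Red is dfr14, left, and dark blue is control, right; each symbol is 1 library and the bar is the geometric mean of the 4. Control library 2 (squares) is at 3440 CPM for Lsp1beta and 5.77 CPM for Fbp1.

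By limma 0 of the 6 genes passed in the BRGC (1 had an unadjusted p under 0.05), where 16% of all 9731 genes were called, 980 higher and 574 lower in dfr14 and 3019 with an unadjusted p under 0.05. The genotypes overlapped for all 6, where 22.8% of all genes did not overlap. The median log2 fold change was -2.53 over the 6 genes and -0.01 over all genes. Without control library 3, the control with the lowest Lsp1gamma and Fbp2, Lsp1gamma (-4.74, adjusted p = 0.031) and Fbp2 (-3.40, adjusted p = 0.038) passed the same test.

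The 6 genes were among the most variable of the BRGC. The SD within genotypes of the log2 values was 2.90 for Lsp1alpha, 2.70 for Lsp1beta, 2.52 for Lsp1gamma, 2.38 for Fbp1, 2.07 for Fbp2 and 1.28 for Lsp2, against a median of 0.18 over all genes. Of the 9160 BRGC genes with at least 1 CPM, only 0.12% had a larger SD than Lsp1alpha and 1.21% a larger SD than Lsp2. For Lsp1beta the SD was 0.92 in dfr14 BRGC and 3.70 in control BRGC.

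The mixture of the 6 transcripts also differed between the BRGC libraries. Counts of Fbp1 over those of the 3 Lsp1 genes were 7.94, 14.8, 2.99 and 0.104 in dfr14 BRGC and 0.326, 0.000825, 0.397 and 0.528 in control BRGC. In the body the same ratio was 0.567, 1.19, 8.2 and 6.04 in dfr14 and 1.42, 1.04, 0.388 and 0.843 in control. Thus control BRGC library 2 had far less Fbp1 per Lsp1 count than any body library, and dfr14 BRGC libraries 1 to 3 had more than any control body library. Beside dfr14 body, however, dfr14 BRGC libraries 1 and 3 lay within the range. Library 2 was above that range, and library 4 was below every body library. Of the 15 ratios, 2 did not overlap between the genotypes in the BRGC, where 24.3% of all pairs of genes did so. These were Lsp1gamma over Lsp2, with 0.326, 0.0853, 0.433 and 0.939 in dfr14 BRGC and 1.5, 34.9, 1.3 and 1.78 in control BRGC, and Lsp2 over Fbp2, with 13.0, 10.6, 7.51 and 13.4 in dfr14 BRGC and 4.15, 0.46, 5.17 and 3.86 in control BRGC.

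Set against the mean body level of the same genotype, each dfr14 BRGC library held between 0.00993 and 0.577% of it for any member. The tables were normalized separately, so these shares are only rough. Control BRGC library 2 held 102% of the control body mean for Lsp1alpha, 77.9% for Lsp1beta, 13.7% for Lsp1gamma, 2.97% for Fbp2, 0.482% for Lsp2 and 0.0248% for Fbp1. Control library 4 held 21.0% for Lsp1alpha, and 0.65 to 3.25% for the other 5. The mean that Lsp1alpha and Lsp1beta are set against was itself set largely by control body library 3.

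Other fat body genes were also measured in the BRGC libraries. apolpp had 286, 198, 461 and 323 CPM in dfr14 BRGC and 244, 883, 270 and 261 CPM in control BRGC (-0.21 ± 0.41, limma adjusted p = 0.76), so control library 2 was the highest here too, and control library 4 was not raised. Of 17 genes measured, 2 were higher in dfr14 (Tsf1, daw) and 2 lower (FASN1, Lpin), a share near the 16% called over all BRGC genes. Tsf1, transferrin, had 99 ± 14.1 CPM in dfr14 BRGC and 48.5 ± 17.2 CPM in control BRGC (1.11 ± 0.26, adjusted p = 0.021). FASN1, a fatty acid synthase gene, had 195 ± 28.3 CPM in dfr14 BRGC and 403 ± 66.5 CPM in control BRGC (-1.04 ± 0.14, adjusted p = 0.00098). daw, a TGF-beta ligand gene, had 57.7 ± 9.11 CPM in dfr14 BRGC and 35.5 ± 6.99 CPM in control BRGC (0.70 ± 0.16, adjusted p = 0.019). Lpin, a lipid synthesis gene, had 111 ± 12.7 CPM in dfr14 BRGC and 145 ± 15.3 CPM in control BRGC (-0.39 ± 0.11, adjusted p = 0.034).

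Markers of other tissues in the BRGC libraries are given beside these levels. The 5 blood cell markers summed to 525 to 695 CPM in dfr14 BRGC and 289 to 770 CPM in control BRGC. Of the 5, 2 were higher in dfr14, where 980 of all 9731 BRGC genes were called higher and 16% either way. NimC1, a phagocytosis receptor gene, had 51.9 ± 11.8 CPM in dfr14 BRGC and 12.8 ± 4.01 CPM in control BRGC (2.04 ± 0.23, limma adjusted p = 0.00036), and He, hemese, had 86.0 ± 6.46 CPM in dfr14 BRGC and 47.3 ± 18.9 CPM in control BRGC (0.96 ± 0.27, adjusted p = 0.039). PPO3 was higher as well, with 6.13 ± 2.76 CPM in dfr14 BRGC and 1.62 ± 0.65 CPM in control BRGC (1.83 ± 0.35, adjusted p = 0.0076), the 1 of 3 prophenoloxidase genes that passed. The 6 muscle genes summed to 792 to 949 CPM in dfr14 BRGC and 723 to 843 CPM in control BRGC, and the 6 gut genes to 0.841 to 57.2 CPM in dfr14 BRGC and 0.634 to 23.5 CPM in control BRGC. Control library 2 had the highest sum of blood cell markers, 770 CPM. Control library 3, the control lowest in Lsp1beta, Lsp1gamma, Lsp2 and Fbp2, had the lowest, 289 CPM. Control library 4, the next highest in the 6 genes, had 564 CPM, below control library 1 (647 CPM) and dfr14 library 3 (695 CPM). The part of these tissues in the member levels was not tested.

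The BRGC libraries were also compared in the genes that make ecdysone and those that respond to it. The 7 ring gland genes measured summed to 352, 357, 275 and 306 CPM in dfr14 BRGC. In control BRGC they summed to 447, 537, 435 and 509 CPM, highest in control libraries 2 and 4. Of the 7, 4 were lower in dfr14, where 574 of all 9731 BRGC genes were called lower and 16% either way. These were dib (limma adjusted p = 0.019), sad (0.0064), nvd (0.033) and spok (0.013), which encode enzymes of ecdysone synthesis. Of the 12 ecdysone response regulators, 0 passed in the BRGC and 10 had a positive sign. Hr3 had 20.8, 25.3, 42.1 and 17.9 CPM in dfr14 BRGC and 2.22, 10.6, 63.7 and 42.0 CPM in control BRGC. Control library 2 was below the dfr14 values and control library 4 near the highest of them. In the list for storage granule uptake and lysosomes, 2 of 10 genes passed, again near the share over all BRGC genes. Atg8a, an autophagy gene, was higher in dfr14 BRGC (330 ± 21.1 CPM) than in control BRGC (271 ± 19.7 CPM, adjusted p = 0.037), and CtsB1, a cathepsin gene, was lower in dfr14 BRGC (140 ± 19.5 CPM) than in control BRGC (195 ± 21.4 CPM, adjusted p = 0.020). None of the 7 storage protein regulators passed in the BRGC by limma (0 of 7), and srp came nearest (adjusted p = 0.056).

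Over the 8 BRGC libraries the genes most like the mean of Lsp1beta, Lsp1gamma and Lsp2, of 9154 genes, were Cyp4d1 (Pearson correlation 0.984), fon (0.967), CG11313 (0.959), CG5773 (0.959) and Hn (0.954). fon, which encodes a clotting protein of the hemolymph, ranged from 0.565 to 61.0 CPM, and Hn, a phenylalanine hydroxylase gene, from 0.471 to 15.8 CPM. All 5 genes were highest in control library 2, and the correlations without that library were not computed.

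Whether the genotype difference was the same in body and BRGC was tested directly, as the body change minus the BRGC change. For Lsp1alpha it was 6.82 ± 2.60 (95% interval 1.27 to 12.4, unadjusted p = 0.019, limma adjusted p = 0.24) and for Lsp1beta it was 4.70 ± 1.96 (95% interval 0.51 to 8.89, unadjusted p = 0.03, adjusted p = 0.30). These 2 genes had positive values in the body and negative values in the BRGC. Lsp1gamma gave 2.15 ± 1.76, Lsp2 0.46 ± 0.85, Fbp1 -0.34 ± 1.54 and Fbp2 -0.58 ± 1.70, with adjusted p of 0.64, 0.86, 0.95 and 0.92. By this test 0 of the 6 passed, where 1.29% of the 9256 genes in both tables were called.

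**Figure D5:**
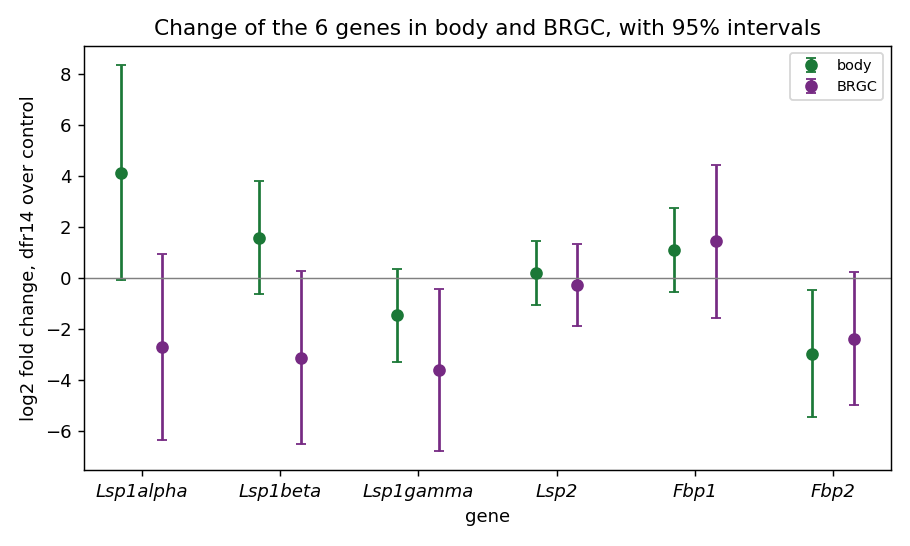
Log2 fold change, dfr14 over control, of each of the 6 genes in the body (green) and in the BRGC (purple), with 95% intervals from limma, 4 libraries a group. The intervals of Fbp2 in the body and of Lsp1gamma in the BRGC leave out 0 before adjustment, and for Lsp1alpha and Lsp1beta the points lie on opposite sides of 0 in the 2 tissues.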

How the data were processed

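RNA was poly-A selected, made into stranded libraries and sequenced from 16 samples, 4 of each genotype and tissue. Trimming was by Trim Galore, alignment by STAR and gene counting by featureCounts (BDGP6), and the authors deposited log2 CPM values made with edgeR, with TMM scaling and a prior count of 2, in a table per tissue. Versions of the trimming, alignment and counting tools are not given in the sources used here. The tables also hold the authors' group means, their own comparisons, and 8 columns per table of the values less a floor, which were not used. Columns were assigned to groups by these group means, from which the means of the columns so assigned differ by rounding only. The deposited genotype tag follows the tissue and contradicts the sample titles, which were followed.

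Whole reads were recovered from the deposited log2 values (largest distance from a whole number 4.6e-08). Genotypes were compared on the deposited values by limma 3.58.1 with an intensity trend in R 4.3.3, over all genes of a table, with Benjamini-Hochberg adjustment at 0.05; body and BRGC were compared by an interaction term over genes in both tables. The samples were called biological replicates by the study; p-values measure the spread between them. No 2 libraries of a group agreed within counting noise (chi-square per gene at least 20.9). Alternatives were other scalings, a prior count of 0.5, a filter (10 reads in 4 libraries), voom weights, male transcripts as a covariate and leaving out libraries. Named genes were the 6 members, called or abundant members of each list and the 5 most alike genes per tissue; the ecdysone genes given per library fall outside this rule. Members and lists were chosen with earlier results of these data known. The fitting code was tested on simulated data.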

Additional observations from a re-analysis of the deposited data

Results flagged for a closer look

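Of 24 sets of 4 libraries, a gene in a group each, 1 held a library apart from the other libraries of its group: Fbp2 in dfr14 BRGC library 4, with 1.83 CPM beside 4.22, 4.93 and 4.89 CPM. Chance alone flags about 1 in 20 such groups.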

How the results depend on the processing

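No paired analysis was possible because the columns carry no replicate numbers and body and BRGC came from different larvae. With dfr14 against control, the 177 genes called in the body became 62 with voom weights and 737 (397 higher, 340 lower) with male transcripts as a covariate, and 72 to 245 with each library left out (over 1.5 times fewer without any 1 library but control 3 or 4). The 1554 called in the BRGC became 901 to 1613 with each library left out (901 without dfr14 library 4, 914 without control library 4), and 614 without control libraries 2 and 4, chosen after seeing the data. The 119 called for the difference of the tissues became 55 (without dfr14 BRGC library 4) to 206 (without dfr14 body library 4). Scaling by library size alone changed the split of higher and lower calls, to 113 and 81 in the body (136 and 41), 782 and 988 in the BRGC (980 and 574), and 25 and 87 for the difference of the tissues (60 and 59; 41 and 78 with median-ratio factors). The cause was not tested.

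No member passed in the body or for the difference of the tissues under any alternative run, and in the BRGC only Lsp1gamma and Fbp2 did, without control library 3. Signs turned for Lsp2 in the body with library size alone (-0.045), for Lsp1alpha (0.22) and Lsp2 (1.12) in the BRGC without control libraries 2 and 4, and, with single libraries left out, for Lsp2 in the BRGC (-0.95 to 0.34) and for the difference of the tissues in Lsp2 (-0.14 to 1.15), Fbp1 (-1.50 to 0.38) and Fbp2 (-1.71 to 0.45). With single libraries left out the body change ranged over 2.84 to 5.33 for Lsp1alpha, 1.09 to 2.29 for Lsp1beta, -2.02 to -1.04 for Lsp1gamma, 0.98 to 1.23 for Fbp1 and -3.72 to -2.15 for Fbp2. Depth was no limit for the members in the body (at least 453 reads), and in the BRGC the lowest value was 10 reads.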
